A study of Mus musculus with 6 samples.

Results

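The cells described here are 347 mouse lung macrophages that carry transcripts of complement component C1q, found among 64428 deposited cell barcodes, of which 61736 had 200 or more detected genes and no more than 10% of transcripts from mitochondria. Members were chosen by C1q counts. A member held at least 10 unique molecular identifiers (UMIs, each standing for 1 captured transcript) of C1qa, C1qb and C1qc together. It also had to hold at most 2 UMIs of the alveolar macrophage genes Marco, Plet1, Atp6v0d2, Krt79 and Ear1, and less than 5% of its UMIs from the neutrophil genes S100a8 and S100a9. At most 1 UMI of Ly6g and Cxcr2, and 0 UMIs of Cd79a and Cd3e, kept out other neutrophils, B cells and T cells. Since these counts chose the cells, the genes in the rule are given as values only.

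C1qa, C1qb and C1qc encode the chains of C1q, which binds immune complexes and dying cells and opens the classical complement pathway. Macrophages of tissues are its main source. In the lung, C1q-carrying macrophages lie in the interstitium along airways, vessels and nerves, apart from the alveolar macrophages of the air spaces, and are usually described as a perivascular kind with Lyve1, Folr2 and Cd163 and a kind rich in MHC class II and Cx3cr1. Lipopolysaccharide (LPS), a lipid of the outer membrane of Gram-negative bacteria, is sensed by Toll-like receptor 4 with Cd14 and Ly96, and signals to NF-kB and to the interferon regulatory factors. The C1q genes lie side by side on the minus strand of chromosome 4 in GENCODE M21, C1qb at 136880129 to 136886187, C1qc at 136889804 to 136893065 and C1qa at 136895917 to 136898803.

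Whole lungs were digested and leukocytes were captured on magnetic beads through CD45, so the cells are leukocytes of the whole organ. The mice were wild type (WT, spelled C65BL6 in the design text) or lacked Nos1, the neuronal nitric oxide synthase (NOS1-/-, here KO), and had received vehicle or LPS into the peritoneum. The LPS dose was 10 mg/kg and the exposure 4 h. There was 1 WT vehicle library, 1 KO vehicle library, 2 WT LPS libraries and 2 KO LPS libraries. The strain of the KO, the ages, the number of mice per library and whether the libraries of a group come from separate animals are not stated in the labels. The p-values below therefore rest on library-to-library spread, part or all of which may be technical. In the fits by group that spread comes from the 2 pairs of LPS libraries alone. No vehicle spread was measured, and the vehicle groups are assumed to vary like the LPS groups.

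The members' summed UMIs ran from 222858 to 949717 per library. Depth moved with treatment, from a median of 4894 and 6173 UMIs per member with vehicle to between 8444 and 11445 with LPS, while the median mitochondrial share went from 3.01% and 3.23% to between 1.33% and 2.45%. No barcode of a member was shared between libraries, and any pair of the 6 libraries shared 20 to 35 barcodes in all. Over all cells, Nos1 gave 2 UMIs in the WT and 5 in the KO vehicle library, 0 and 1 in the WT LPS and 4 and 4 in the KO LPS libraries. The labels do not say which exons were deleted, so these counts check no label. Members with Y-linked and no Xist UMIs numbered 16 in the WT vehicle library, where none carried Xist. The KO vehicle library had 48 members with Xist alone and the WT LPS libraries 56 and 66, with none carrying a Y-linked UMI. Both kinds were present in the KO LPS libraries, 13 and 8 members with Y-linked UMIs alone and 30 and 28 with Xist alone. Sex and treatment cannot be told apart between the WT vehicle and WT LPS libraries. Under LPS the KO libraries held both marks and the WT libraries Xist only, so genotype is partly mixed with sex there. The KO response likewise runs from a vehicle library with Xist only to LPS libraries with both marks.

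Members were rare in every library. There were 36 in the WT vehicle and 54 in the KO vehicle library, 72 and 82 in the WT LPS and 56 and 47 in the KO LPS libraries. These numbers are 0.348%, 0.628%, 0.668%, 0.679%, 0.484% and 0.561% of the filtered cells, in the same order. The exact 95% binomial intervals, which cover counting error only, spanned 0.244% to 0.482% in the WT vehicle library and 0.541% to 0.843% in the second WT LPS library. LPS libraries averaged 0.598% and vehicle libraries 0.488%, a difference of 0.110 percentage points (exact two-sided permutation test, p = 0.40; with 4 against 2 libraries p cannot go below 0.13). The KO vehicle library lay within the range of the LPS libraries, so the groups overlapped in this share. Of cells outside neutrophils, members were 0.372% and 0.679% with vehicle and 1.32%, 1.35%, 0.818% and 0.937% with LPS. There every LPS library was above both vehicle libraries, a difference of 0.580 percentage points (exact two-sided permutation test, p = 0.13, the smallest this design can give).

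**Figure D1:**
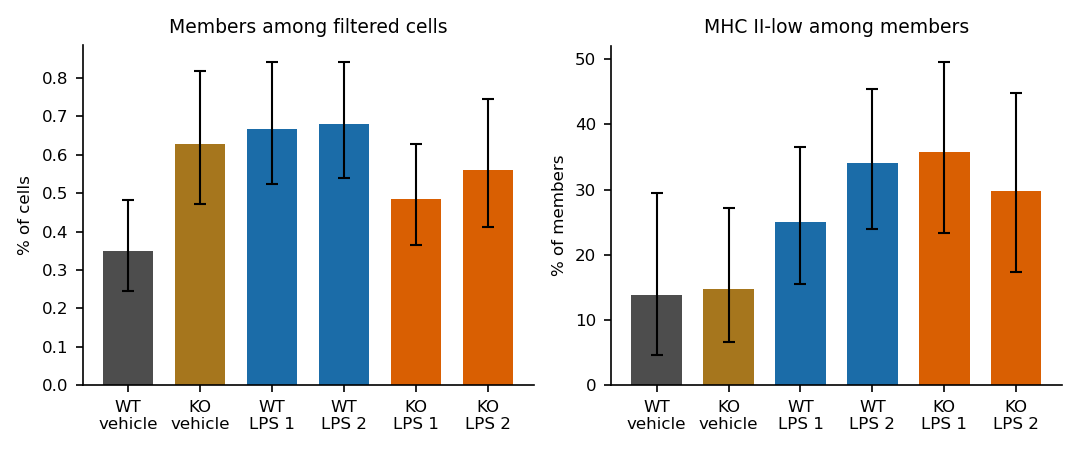
Left, members as a percentage of filtered cells in each of the 6 libraries; right, MHC II-low cells as a percentage of members. Bars start at 0 and the error bars are exact 95% binomial intervals; the left bars run from 0.348% to 0.679% and the right bars from 13.9% to 35.7%.

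C1q transcripts made up 1.20% and 1.46% of all member UMIs with vehicle and 0.611% to 0.658% with LPS. Because C1q UMIs chose the members, these shares describe the cells and test nothing. Near the threshold of 10 UMIs, 2, 3, 5, 7, 7 and 3 members per library held 10 to 14 C1q UMIs, and 10, 3, 10, 12, 21 and 5 cells that met every other condition held 5 to 9. The first KO LPS library moved most with the threshold, from 56 members to 77 (0.665% of cells) at 5 UMIs and 45 (0.389%) at 20.

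Ms4a7, a membrane protein of tissue macrophages, and Folr2, the folate receptor beta, are the other markers of these cells and were not part of the rule. After every cell was thinned to 2000 UMIs, so that depth could not set the share, Ms4a7 was found in 51.4% and 72% of vehicle members and 49.3%, 32.1%, 34.5% and 34% of LPS members, in the library order WT vehicle, KO vehicle, WT LPS, WT LPS, KO LPS, KO LPS. Without thinning, those shares were 72.2%, 87%, 70.8%, 64.6%, 69.6% and 70.2%. In B cells of the same libraries, which do not make Ms4a7 and give the level of free RNA, the thinned share was 0.267% to 0.717%. Folr2 was found in 20.00% and 14% of vehicle members and 13%, 6.17%, 5.45% and 10.6% of LPS members, with B cells at 0% to 0.0674%. Thinning left out 1, 4, 3, 1, 1 and 0 shallower members. Most members therefore carried Ms4a7 at full depth, and a minority Folr2.

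Members fell apart by 2 properties that the rule did not use. MHC class II transcripts were abundant in 254 members and nearly absent in 93, with a cut at 0.2% of UMIs that was set after the values were seen. Only 24 members lay between 0.1% and 0.4%. Among the 93 MHC II-low cells, 38 held at least 1 UMI of Prg4 (the lubricant protein proteoglycan 4), Alox15 (a lipoxygenase), F5 (coagulation factor V) or Selp (P-selectin), and 55 held none. The 4 genes were also chosen after their values were seen, so what follows is a description with no test.

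**Figure D2:**
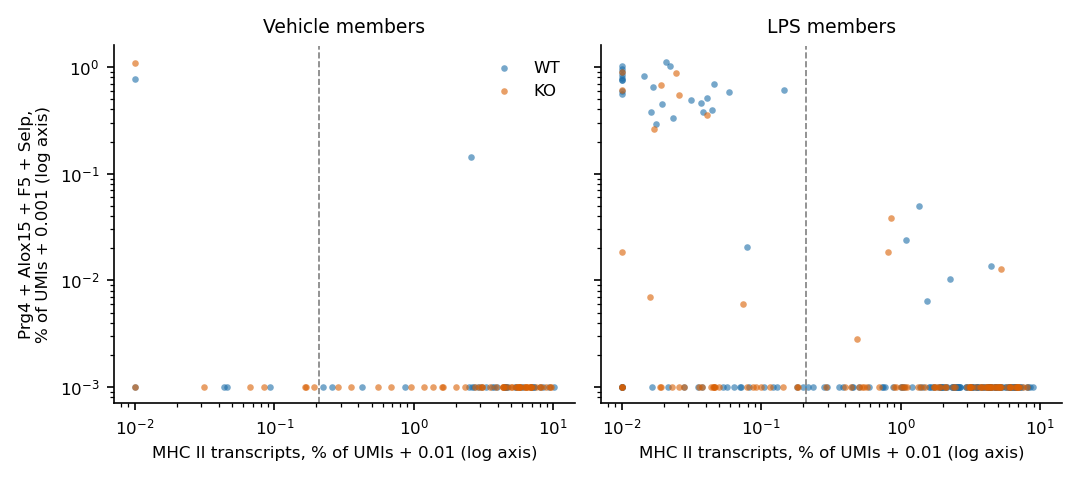
Each point is 1 member, WT in blue and KO in orange, with vehicle left and LPS right. The horizontal log axis is MHC II transcripts as a percentage of UMIs plus 0.01, the vertical log axis Prg4, Alox15, F5 and Selp together as a percentage of UMIs plus 0.001, and the dashed line marks the 0.2% cut. The group at upper left has 1 cell in each vehicle library and most of its 38 cells in LPS libraries.

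The 38 cells with those genes did not match C1q interstitial macrophages by Ms4a7 and Folr2. They numbered 1 and 1 in the vehicle libraries, 8 and 18 in the WT LPS and 5 and 5 in the KO LPS libraries, that is 36 of 257 LPS members against 2 of 90 vehicle members. Over the 4 LPS libraries (mean ± SD, n = 4) Ms4a7 was at 26.6 ± 42.3 CPM (UMIs scaled to equal library totals) in them, against 440.3 ± 138 in the other MHC II-low and 374 ± 45.9 in the MHC II-high members. Folr2 was at 6.38 ± 8.3, 209.7 ± 148 and 51.3 ± 16.6 CPM in the same order. C1qa itself was at 957 ± 409.8 CPM in these cells, below the 3055 ± 437 and 2254 ± 140.2 of the others. They carried the transcription factor Gata6, known from large macrophages of serous cavities, at 65.4 ± 15.8 CPM, where the other MHC II-low cells had 0 and the MHC II-high cells 1.26 ± 1.72. The phosphatidylserine receptor Timd4 was at 384 ± 307 CPM in them, against 21.6 ± 21.1 and 31 ± 29.3. By leading genes this was a Prg4, Thbs1, Fn1, Slpi and Serpinb2 group, and it is called the Prg4 cells below.

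Under LPS, transcripts of several secreted proteins were highest in these few cells. Saa3, an acute-phase serum amyloid, was at 42492 ± 18503 CPM in the Prg4 cells, 3714 ± 1038 in the other MHC II-low cells and 3101 ± 1844 in the MHC II-high cells. Thrombospondin 1 (Thbs1) was at 5095 ± 2363, 36.9 ± 23.5 and 154 ± 158 CPM. Serpinb2, an inhibitor of plasminogen activators, was at 2470.3 ± 1319, 32.6 ± 65.1 and 18.2 ± 17.4. Properdin (Cfp), which stabilises the alternative pathway convertase, was at 1030 ± 277, 235 ± 123 and 102 ± 65.4. Cxcl1, which attracts neutrophils, was at 1330.2 ± 691, 171 ± 119 and 202 ± 154, and fibronectin (Fn1) at 4692 ± 2230, 104 ± 82.7 and 85.4 ± 86.4, each listed in the order of Saa3. Fn1 summed over all members did not pass between LPS and vehicle (log2 change 0.92 ± 0.41, adjusted p = 0.13). The Prg4 cells were deeper than the rest, with a median of 12442 to 20511 UMIs per LPS library, and 2 of the 38 were among the highest doublet scores.

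The 55 other MHC II-low cells were highest for some genes of the perivascular kind and not for others. There were 4, 7, 10, 10, 15 and 9 of them in the libraries. Their Folr2 level stood above that of both other groups, and so did Ccl12, which attracts monocytes, at 3714 ± 2365 CPM against 282 ± 406 in Prg4 and 952 ± 243 in MHC II-high cells. Trem2, a lipid receptor, was at 214 ± 78.9 against 19.2 ± 10.7 and 57.5 ± 23.2 CPM, and apolipoprotein E (Apoe) at 13528 ± 882 against 5446 ± 655 and 5659 ± 1250.3. The scavenger receptor Stab1 and the mannose receptor Mrc1 were at 169 ± 66 and 664 ± 135 CPM. Lyve1, the hyaluronan receptor for which the kind is named, was at 37.2 ± 29.2 CPM here, 264 ± 382 in the Prg4 and 67 ± 79.8 in the MHC II-high cells, so its mean was lowest here. The Prg4 mean rested largely on the first KO LPS library, at 831 CPM, where 1 member held 100 Lyve1 UMIs. In the first WT LPS library Lyve1 was highest here, at 70.2 CPM against 0 in Prg4 and 21 in MHC II-high cells. Other genes linked to that kind were highest in the Prg4 cells, Timd4 as given above, the chemokine Pf4 at 4311 ± 1888 CPM against 1746 ± 628 here, and Ccl24 at 269 ± 75.4 against 6.34 ± 7.45.

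The 254 MHC II-high cells, 31 and 46 with vehicle and 54, 54, 36 and 33 with LPS, made up the bulk of members. H2-Ab1, a chain of MHC II, was at 5152 ± 584 CPM in them under LPS, against 89 ± 49.6 in the other MHC II-low and 21.5 ± 24.3 in the Prg4 cells. Both ligands of Ccr4 were found almost only here, Ccl17 at 2374 ± 1487 CPM against 57.1 ± 35.4 and 1.85 ± 3.7, and Ccl22 at 1621 ± 568 against 47.4 ± 64.9 and 4.78 ± 5.65. Ccr7, a homing receptor of migratory dendritic cells, was at 167 ± 119 CPM, and the elastase Mmp12 at 252 ± 65.5. On the list of 6 dendritic cell markers, summed levels in all members were 98.7 and 61.3 CPM with vehicle and 321, 173, 114 and 142 CPM with LPS, and 1 to 12 members per library held 3 or more of those UMIs. Flt3, which defines dendritic cells, had a UMI in 8.33%, 1.85%, 4.17%, 1.22%, 0% and 0% of members. The part of dendritic cells in the Ccl17, Ccl22 and Ccr7 levels was not tested. MHC II-low cells were 13.9% and 14.8% of members with vehicle and 25%, 34.1%, 35.7% and 29.8% with LPS.

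LPS changed many of the genes measured in members. Of 8123 genes tested, 2110 passed an adjusted p of 0.05 (26.0%), 1268 higher (15.6%) and 842 lower (10.4%) under LPS, averaged over the genotypes. The shares of 15.6% and 10.4% are the base rates for every list count of this comparison below. With no scaling beyond total UMIs the split was 921 higher and 1299 lower, and the median of all genes moved from a log2 change of 0.052 to -0.235. Changes are log2 values ± standard error, and levels are CPM after scaling between libraries. In bulk sums like these, fewer cells of a kind and less RNA per cell cannot be told apart. The vehicle side holds 1 library per genotype, and 926 genes passed without the WT vehicle library (the contrast is then within the KO) and 1155 without the KO vehicle library (within the WT).

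Interferon-stimulated genes rose without exception in the list. All 34 measured of 36 passed the test, beside 15.6% of all genes, with a median log2 change of 6.08 (5.86 with the 3 genes that had 0 vehicle UMIs at their lower bound, against 0.052 over all genes). Ifit1, which binds viral RNA ends, had 0 UMIs in both vehicle libraries and was at 1660.05 and 1558 CPM in the WT and 1141 and 1363 in the KO LPS libraries, at least 311-fold higher against 3 counts over the vehicle side (adjusted p = 4.6e-06). Rsad2, the antiviral enzyme viperin, went from 3.99 and 0 CPM with vehicle to 2483 and 2125 (WT) and 1504 and 1799 CPM (KO) with LPS, a ratio of 1299 (95% counting interval 233 to 51322). Isg15, a ubiquitin-like modifier, went from 19.95 and 15 CPM with vehicle to 5369.9 and 5232 (WT) and 3301 and 2618 CPM (KO) with LPS (log2 change 7.82 ± 0.25, adjusted p = 3.9e-06). Every LPS library stood above every vehicle library for these 3 genes, as it did for 26.0% of all genes tested; 24.3% of all genes were lower in every LPS library than in both vehicle libraries. These shares are the base rates for each later statement that the groups stood apart. Gbp2, a guanylate-binding protein, reached 714 and 561 CPM in the WT and 695 and 631 in the KO LPS libraries from 23.9 CPM in the WT and 0 in the KO vehicle library (log2 change 8.16 ± 0.39, adjusted p = 2.0e-05), and Ifi205 went from 0 in both vehicle libraries to 835 and 698 CPM in the WT and 659 and 636 in the KO LPS libraries, at least 155-fold. The size of the Gbp2 log2 change is uncertain beyond its standard error, since the KO vehicle library held 0. Between 31 and 34 list genes stayed called under each alternative, including that with MHC II-high members alone (34).

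The 250 bases upstream of Ifit1, Rsad2 and Cxcl10, a chemokine gene induced with them, are shown because they hold the letters of an interferon-response site, and those of Cx3cr1 because its level fell. Capitals mark GAAA, any 2 bases, GAAA (the interferon-response letters) or GGGA, any 2 bases, TTCC (the NF-kB letters), on either strand and with no overlap between the kinds shown. Each window is read 5′ to 3′ along the gene in RefSeq positions of GRCm38.p6, Ifit1 at chr19:34640639-34640888 on the plus strand, Rsad2 at chr12:26456453-26456702, Cxcl10 at chr5:92348890-92349139 and Cx3cr1 at chr9:120068297-120068546 on the minus strand.
Ifit1: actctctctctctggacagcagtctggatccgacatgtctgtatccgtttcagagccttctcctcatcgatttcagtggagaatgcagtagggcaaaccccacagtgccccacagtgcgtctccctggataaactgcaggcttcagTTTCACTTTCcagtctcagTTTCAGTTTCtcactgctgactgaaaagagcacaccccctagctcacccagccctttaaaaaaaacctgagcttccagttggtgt
Rsad2: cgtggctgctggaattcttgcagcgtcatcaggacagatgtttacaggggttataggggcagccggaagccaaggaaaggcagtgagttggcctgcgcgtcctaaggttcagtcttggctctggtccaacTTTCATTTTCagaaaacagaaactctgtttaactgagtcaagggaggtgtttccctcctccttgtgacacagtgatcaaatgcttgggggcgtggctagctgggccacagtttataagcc
Cxcl10: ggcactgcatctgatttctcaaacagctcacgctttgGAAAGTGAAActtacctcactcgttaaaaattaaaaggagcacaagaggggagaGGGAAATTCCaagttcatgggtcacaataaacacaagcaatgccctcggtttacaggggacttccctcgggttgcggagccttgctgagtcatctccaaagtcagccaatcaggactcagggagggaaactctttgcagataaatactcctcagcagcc
Cx3cr1: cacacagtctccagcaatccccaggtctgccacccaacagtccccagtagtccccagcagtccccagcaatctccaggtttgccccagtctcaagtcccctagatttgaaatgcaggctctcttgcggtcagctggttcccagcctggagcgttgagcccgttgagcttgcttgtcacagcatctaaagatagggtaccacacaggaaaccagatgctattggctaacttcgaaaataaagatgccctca
Ifit1 held 2 matches, starting at -104 and -85 from the start site, Rsad2 1 at -120, and Cxcl10 1 of each kind, at -213 and -159. The Cx3cr1 window held neither. The interferon letters were found in 57.1% of 28 interferon-stimulated genes with a window, in 3.83% of 6509 tested genes with a window, in 8.41% of 1022 of them that rose, in 2.95% of 644 that fell and in 3.46% of 27025 genes of the table. The NF-kB letters were found in 3 of 16 genes of the NF-kB list below that have a window (18.8%), in 1.66% of the tested genes and in 1.36% of the table. A match describes letters and not binding.

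NF-kB pathway genes also rose together, 17 of 19 tested and none lower (median log2 change 2.31). Nfkbia, the inhibitor that NF-kB itself induces, went from 311 (WT) and 502 CPM (KO) with vehicle to 3307 and 3244 (WT) and 2266 and 2082 CPM (KO) with LPS (log2 change 2.75 ± 0.15, adjusted p = 2.4e-05). The deubiquitinase Tnfaip3 (A20) went from 35.9 and 37.5 CPM with vehicle to 834 and 745 (WT) and 501 and 548 CPM (KO) with LPS (log2 change 4.12 ± 0.22, adjusted p = 2.1e-05), and its partner Tnip1 showed log2 change 3.2 ± 0.26, adjusted p = 1.4e-04. All 4 LPS libraries were above both vehicle libraries in each case (26.0% of all genes). On the list of LPS recognition and Toll-like receptor signalling 10 of 21 rose and none fell. Cd14, the LPS co-receptor, went from 630.5 and 512 CPM with vehicle to 1824 and 2294 (WT) and 1236 and 1107 CPM (KO) with LPS (log2 change 1.45 ± 0.17, adjusted p = 6.6e-04), the adaptor Myd88 showed log2 change 3.04 ± 0.27, adjusted p = 1.9e-04, and Casp4, the mouse sensor of LPS in the cytosol, log2 change 3.62 ± 0.23, adjusted p = 4.8e-05. Acod1, which makes itaconate, had 0 UMIs with vehicle and reached 452 and 637 CPM in the WT and 316 and 382 in the KO LPS libraries, at least 97.6-fold higher.

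Feedback inhibitors of cytokine signalling rose, with 12 of 20 SOCS and JAK-STAT genes higher and none lower (median 1.83). Socs1, which blocks JAK kinases, went from 12 (WT) and 5.0 CPM (KO) with vehicle to 136 and 154 (WT) and 109 and 135 CPM (KO) with LPS (log2 change 4.06 ± 0.35, adjusted p = 1.7e-04). Socs3, which acts on the gp130 receptors, went from 219 and 402 CPM with vehicle to 1411 and 1391 (WT) and 729.9 and 936 CPM (KO) with LPS (log2 change 1.86 ± 0.18, adjusted p = 2.8e-04). The phosphatase Ptpn1 showed log2 change 3.35 ± 0.18, adjusted p = 2.2e-05 and Jak2 log2 change 3.31 ± 0.33, adjusted p = 3.2e-04. With cells thinned to 2000 UMIs Socs1 was found in 2.86%, 2.0%, 17.4%, 17.3%, 7.27% and 17% of members, while B cells, which can make Socs1 themselves, gave 1.65%, 2.82%, 37.5%, 39.5%, 38.4% and 37.5%. The share in members was not above that in B cells in the LPS libraries, so it is not read as expression.

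**Figure D3:**
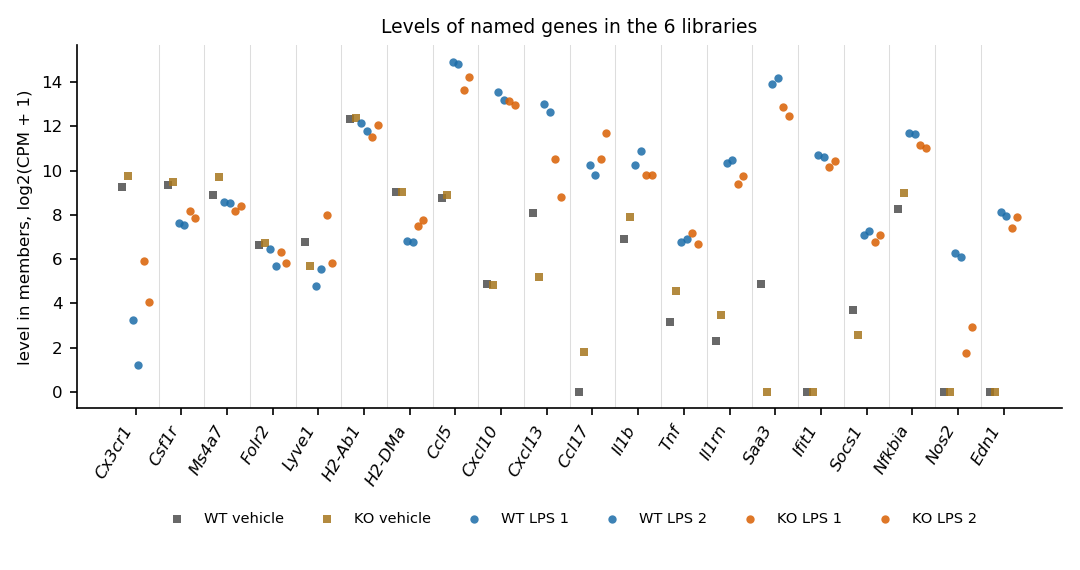
Levels of 20 named genes in members, as log2(CPM + 1) on the vertical axis, with 1 point per library (squares vehicle, circles LPS; grey and brown WT and KO vehicle, blue and orange WT and KO LPS). Ifit1, Nos2 and Edn1 are at 0 in both vehicle libraries, Cx3cr1 is lower in all 4 LPS libraries, and Lyve1 and Folr2 change little or overlap.

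Chemokine genes rose together. Of 12 CC chemokines 8 rose and none fell. Ccl5, which attracts T cells and monocytes, went from 431 (WT) and 482 CPM (KO) with vehicle to 30811 and 28813 (WT) and 12878 and 19165 CPM (KO) with LPS (log2 change 5.58 ± 0.24, adjusted p = 9.2e-06), and in the thinned cells it was present in 5.71%, 12%, 91.3%, 90.1%, 89.1% and 91.5% of members in library order, with B cells at 9.97%, 7.26%, 30.9%, 33.6%, 21.8% and 18.7%. Ccl4 went from 83.8 and 205 CPM with vehicle to 7014 and 7487 (WT) and 4037 and 5001 CPM (KO) with LPS (log2 change 5.45 ± 0.20, adjusted p = 4.6e-06) and Ccl3, a related chemokine, from 55.9 and 175 CPM with vehicle to 1608 and 2194 (WT) and 784 and 1244 CPM (KO) with LPS (log2 change 3.81 ± 0.30, adjusted p = 1.2e-04). Both groups stood apart for all 3. After thinning, Ccl4 was in 88.4%, 81.5%, 78.2% and 74.5% of LPS members and 40.7%, 38.6%, 24.1% and 20.5% of B cells. Ccl3 was in 81.2%, 72.8%, 56.4% and 63.8% of LPS members and 26.1%, 26.7%, 18.3% and 15.6% of B cells. Ccl17 had 1 vehicle UMI and reached 1233 and 894 CPM in the WT and 1492 and 3375 in the KO LPS libraries, a ratio of 1011 (95% counting interval 181 to 39923), and Ccl22 reached 1586 and 1089 CPM in the WT and 574 and 1651 in the KO LPS libraries. Few cells carried these levels. The top 5 cells held 88.9% and 76.6% of Ccl17 UMIs in the WT and 96.2% and 85.7% in the KO LPS libraries. For Ccl22 they held 54.1%, 63.1%, 80.7% and 85.2% in the same order. In the first KO LPS library 1 cell held 622 of 1241 Ccl17 and 1 cell 239 of 477 Ccl22 UMIs. Of those that attract monocytes, Ccl7 went from 108 and 55 CPM with vehicle to 1154 and 1362 (WT) and 994 and 627 CPM (KO) with LPS (log2 change 3.71 ± 0.28, adjusted p = 9.5e-05) and Ccl12 from 339 and 477 CPM with vehicle to 1603 and 1475 (WT) and 1227 and 817 CPM (KO) with LPS (log2 change 1.64 ± 0.21, adjusted p = 0.0010). Ccl2, their close relative, was at 311 CPM in the WT and 269.95 in the KO vehicle library and 324 and 428 CPM in the WT and 1209.7 and 451 in the KO LPS libraries and did not pass (log2 change 0.95 ± 0.38, adjusted p = 0.10).

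CXC chemokines rose in 6 of 10 cases and none fell. Cxcl10, a ligand of Cxcr3 on T and NK cells, went from 27.9 (WT) and 27.5 CPM (KO) with vehicle to 11849.8 and 9290.4 (WT) and 8937 and 7934 CPM (KO) with LPS (log2 change 8.40 ± 0.25, adjusted p = 3.9e-06). It was in 2.86% and 8.0% of vehicle members and 95.7%, 92.6%, 81.8% and 87.2% of LPS members after thinning, and in 0.0533%, 0.166%, 53.9%, 55.4%, 45.5% and 44.3% of B cells. Cxcl9 had 0 UMIs with vehicle and reached 464 and 324 CPM in the WT and 311 and 106 in the KO LPS libraries (at least 70.8-fold). Cxcl13, which attracts B cells, went from 271 and 35 CPM with vehicle to 8202 and 6488 (WT) and 1456 and 451 CPM (KO) with LPS (log2 change 4.76 ± 0.54, adjusted p = 6.2e-04), with the KO LPS libraries far below the WT ones. A minority of members held it, 11.4%, 4.0%, 36.2%, 28.4%, 21.8% and 8.51% after thinning in library order, and B cells had at most 0.828%. Chemokines for neutrophils rose too, Cxcl2 from 451 and 507 CPM with vehicle to 2359.5 and 4399 (WT) and 2479.6 and 2229.97 CPM (KO) with LPS (log2 change 2.56 ± 0.28, adjusted p = 4.9e-04) and Cxcl1 from 7.98 and 5.0 CPM with vehicle to 225 and 1001 (WT) and 456 and 267 CPM (KO) with LPS (log2 change 6.18 ± 0.998, adjusted p = 0.0035). After thinning, Cxcl2 was in 71%, 80.2%, 70.9% and 74.5% of LPS members and 45.7%, 42.9%, 38.3% and 30.8% of B cells. The part of free RNA in its level was not tested.

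Cytokines and growth factors followed, 18 of 26 higher and 4 lower. Il1b went from 119.7 and 239.96 CPM with vehicle to 1219 and 1902 (WT) and 892 and 889 CPM (KO) with LPS (log2 change 2.80 ± 0.24, adjusted p = 1.7e-04). Its natural antagonist Il1rn went from 3.99 and 10.00 CPM with vehicle to 1299 and 1444 (WT) and 678 and 867 CPM (KO) with LPS (log2 change 7.29 ± 0.31, adjusted p = 1.0e-05), and Tnf from 7.98 and 22.5 CPM with vehicle to 107 and 119 (WT) and 142 and 103 CPM (KO) with LPS (log2 change 3.12 ± 0.35, adjusted p = 5.6e-04). Each was higher in all 4 LPS libraries than in either vehicle library (26.0% of all genes). After thinning, Il1b was in 55.1%, 65.4%, 47.3% and 38.3% of LPS members and 38.2%, 43.2%, 30.9% and 28.9% of B cells. Il1rn was in 76.8%, 67.9%, 54.5% and 68.1% of LPS members and 28%, 34.3%, 22% and 22.9% of B cells. The part of free RNA in these levels was not tested. Endothelin 1 (Edn1), a vasoconstrictor, had 0 UMIs with vehicle and reached 277 and 243 CPM in the WT and 168 and 236 in the KO LPS libraries, at least 49.8-fold. It was in 0%, 0%, 37.7%, 27.2%, 23.6% and 21.3% of thinned members and in 0.32%, 0.125%, 5.79%, 6.6%, 3.64% and 2.81% of B cells. Il6 was at 0 CPM in the WT and 10.00 in the KO vehicle library and 71.6 and 138 CPM in the WT and 22.8 and 31.4 in the KO LPS libraries (log2 change 5.16 ± 0.96, adjusted p = 0.0064), a call that was lost without the WT vehicle library (log2 change 1.37, adjusted p = 0.29). Il10 did not pass (adjusted p = 0.055) and its share was at most 2.47% of thinned members, beside at most 2.01% of B cells, which can make Il10 themselves. The genes that fell were Igf1, Pdgfb, Tnfsf13b and Tgfb1.

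Saa3 went from 27.9 (WT) and 0 CPM (KO) with vehicle to 15502 and 18769 (WT) and 7577 and 5629.9 CPM (KO) with LPS (log2 change 12.08 ± 0.38, adjusted p = 3.9e-06), every LPS library above both vehicle libraries. The 0 of the KO vehicle library enters that average, so its size is uncertain beyond the standard error. In the WT vehicle library 1 cell held 6 of 7 Saa3 UMIs. Free Saa3 RNA was widespread, since 0.107%, 0.0415%, 46.1%, 43.8%, 24.1% and 18.5% of thinned B cells held it, beside 2.86%, 0%, 60.9%, 65.4%, 43.6% and 23.4% of members. Without the 48 members that held a Prg4, Alox15, F5 or Selp UMI, Saa3 still passed (adjusted p = 1.7e-06). Lcn2, the iron-binding lipocalin that neutrophils make, went from 0 in both vehicle libraries to 2125 and 3044 CPM in the WT and 1299.9 and 1381 in the KO LPS libraries. Lcn2 was in 0%, 0%, 53.6%, 58%, 43.6% and 40.4% of members and in 1.07%, 1.45%, 63%, 62.1%, 54.1% and 41.1% of B cells, so its share in members was at the level of free RNA. That share counts cells with any UMI. At full depth the top 5 members held 51.8% and 49.8% (WT) and 65.4% and 71.5% (KO) of Lcn2 UMIs in the LPS libraries. The part of free RNA in the Lcn2 level was not tested. The 10 neutrophil markers together were at 71.8 and 36.2 CPM with vehicle and 2134, 3000.3, 1417 and 1653 CPM with LPS, and 3, 0, 58, 63, 35 and 21 members held 3 or more of those UMIs. Their part in the other rises was not tested. Without members that held 3 or more UMIs of a list of another cell type (neutrophil, monocyte and dendritic lists not applied), 1168 genes passed in place of 2110, and 33 interferon-stimulated, 16 NF-kB and 6 CXC chemokine genes were still higher.

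Genes of tissue macrophage identity fell, 17 of 28 tested lower and 4 higher (median -0.89), beside 10.4% lower among all genes. Cx3cr1, the fractalkine receptor, went from 615 (WT) and 862 CPM (KO) with vehicle to 8.5 and 1.33 (WT) and 58.9 and 15.7 CPM (KO) with LPS (log2 change -5.63 ± 0.43, adjusted p = 1.0e-04). It was in 65.7% and 72% of vehicle members and 1.45%, 0%, 9.09% and 2.13% of LPS members after thinning, and B cells had 7.68%, 4.48%, 0.276%, 0.143%, 0.472% and 0.244%. Gpr34, a lysophospholipid receptor, went from 99.8 and 185 CPM with vehicle to 3.64 and 2.65 (WT) and 10.8 and 6.74 CPM (KO) with LPS (log2 change -4.59 ± 0.30, adjusted p = 5.5e-05). Csf1r, the receptor for the growth factor on which macrophages depend, went from 658 and 712 CPM with vehicle to 197 and 187 (WT) and 285 and 234 CPM (KO) with LPS (log2 change -1.61 ± 0.15, adjusted p = 2.8e-04). Tgfbr1 showed log2 change -2.72 ± 0.21, adjusted p = 1.2e-04 and Tmem119 log2 change -3.34 ± 0.33, adjusted p = 3.1e-04. In each of these the LPS libraries lay below both vehicle libraries (24.3% of all genes). Ms4a7 went from 475 and 842 CPM with vehicle to 384 and 365 (WT) and 284 and 339 CPM (KO) with LPS (log2 change -0.89 ± 0.15, adjusted p = 0.0046), and was no longer called without the KO vehicle library (log2 change -0.33, adjusted p = 0.39). The same held for Apoe (log2 change -0.74 ± 0.13, adjusted p = 0.0054, without it log2 change -0.39, adjusted p = 0.23). Without the KO vehicle library 9 genes of the list were lower and 2 higher, and without the WT vehicle library 16 and 1. The exceptions that rose included Fcgr1, the high-affinity IgG receptor, which went from 67.8 and 72.5 CPM with vehicle to 838 and 789 (WT) and 453 and 595 CPM (KO) with LPS (log2 change 3.21 ± 0.22, adjusted p = 6.5e-05).

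The other large falls were a mixed set. Slco2b1, an organic anion transporter, went from 63.8 and 105 CPM with vehicle to 0 and 0 (WT) and 13.2 and 4.49 CPM (KO) with LPS (log2 change -5.80 ± 0.58, adjusted p = 6.4e-04). Hpgd, which inactivates prostaglandins, went from 411 and 492 CPM with vehicle to 32.8 and 13.3 (WT) and 18 and 22.5 CPM (KO) with LPS (log2 change -4.38 ± 0.28, adjusted p = 4.8e-05), and Ypel3 from 192 and 225 CPM with vehicle to 4.86 and 6.63 (WT) and 10.8 and 11.2 CPM (KO) with LPS (log2 change -4.67 ± 0.24, adjusted p = 2.1e-05). Chp2, Tmem86a, Arhgap18, Lifr, Mxd4 and Abca9 had log2 changes of -7.29, -5.11, -4.37, -4.27, -4.04 and -3.98. For the histone gene Hist1h1b (log2 change -4.29 ± 0.32, adjusted p = 9.0e-05) 1 cell held 50 of 58 and 121 of 122 vehicle UMIs, so its fall rests on 2 cells.

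Perivascular genes fell in part, 8 of 20 Lyve1-type genes lower and 1 higher. Selenop, a selenium carrier, went from 922 and 1409.8 CPM with vehicle to 338 and 268 (WT) and 406 and 382 CPM (KO) with LPS (log2 change -1.72 ± 0.15, adjusted p = 1.9e-04), and Fcgrt, the neonatal Fc receptor, from 139.7 and 229.96 CPM with vehicle to 31.6 and 35.8 (WT) and 66.1 and 49.4 CPM (KO) with LPS (log2 change -2.004 ± 0.21, adjusted p = 4.5e-04). Gas6, a ligand of the Mertk and Axl receptors, showed log2 change -2.24 ± 0.26, adjusted p = 6.6e-04. Stab1 showed log2 change -1.85 ± 0.26, adjusted p = 0.0018 and Igf1 log2 change -1.69 ± 0.22, adjusted p = 0.0011. Without members that held other-type markers neither Gas6 (log2 change -1.29, adjusted p = 0.18) nor Igf1 (log2 change -1.19, adjusted p = 0.092) passed. Folr2 was at 99.8 CPM in the WT and 105 in the KO vehicle library and 87.4 and 50.4 CPM in the WT and 78.2 and 56.1 in the KO LPS libraries (log2 change -0.57 ± 0.29, adjusted p = 0.19), and Lyve1 at 108 CPM in the WT and 49.99 in the KO vehicle library and 26.7 and 46.4 CPM in the WT and 256 and 56.1 in the KO LPS libraries (log2 change 0.070 ± 0.61, adjusted p = 0.95). Neither passed, and the Lyve1 groups overlapped. Cd163 passed (log2 change -1.82 ± 0.53, adjusted p = 0.039) but not without the WT vehicle library (log2 change -0.55, adjusted p = 0.65). Timd4, the gene of the list that rose (log2 change 3.51 ± 1.01, adjusted p = 0.038), was highest in the Prg4 cells, and without members of that kind its adjusted p was 0.053. No gene of the list was called higher with either vehicle library left out. Of 21 genes of apoptotic cell uptake 5 were lower and 3 higher, among the lower the integrin Itgb5 (log2 change -3.21 ± 0.24, adjusted p = 1.0e-04) and the lipid exporter Abca1 (log2 change -1.61 ± 0.21, adjusted p = 0.0013; without the KO vehicle library log2 change -1.16, adjusted p = 0.052). The 3 of 21 uptake genes that rose were no larger a share than the 15.6% of all genes. Mertk, the main receptor of that uptake, was at 35.9 CPM in the WT and 67.5 in the KO vehicle library and 49.8 and 33.2 CPM in the WT and 38.5 and 38.2 in the KO LPS libraries (log2 change -0.30 ± 0.31, adjusted p = 0.50).

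MHC II genes went both ways. Of 15 tested 6 were lower and 4 higher. The peptide loading genes fell, H2-DMa from 527 (WT) and 522 CPM (KO) with vehicle to 113 and 109 (WT) and 178 and 218 CPM (KO) with LPS (log2 change -1.83 ± 0.16, adjusted p = 1.8e-04) and H2-DMb1 with log2 change -1.64 ± 0.28, adjusted p = 0.0048. The master regulator Ciita went from 71.8 and 107 CPM with vehicle to 13.4 and 10.6 (WT) and 25.3 and 29.2 CPM (KO) with LPS (log2 change -2.27 ± 0.27, adjusted p = 8.1e-04). Of the abundant chains, 2 moved little, H2-Ab1 from 5144 and 5339 CPM with vehicle to 4548 and 3529 (WT) and 2917 and 4329.7 CPM (KO) with LPS (log2 change -0.45 ± 0.19, adjusted p = 0.11) and the invariant chain Cd74 with log2 change -0.34 ± 0.18, adjusted p = 0.20. The change of H2-Aa, which was larger, is given with the monocytes below. The 4 that rose were co-stimulatory, Cd40 from 12 and 22.5 CPM with vehicle to 670.3 and 542 (WT) and 356 and 389 CPM (KO) with LPS (log2 change 4.84 ± 0.27, adjusted p = 2.5e-05), Cd86 (log2 change 1.23 ± 0.24, adjusted p = 0.0075), Cd80 and Cd83. In the MHC II-high members alone 4 genes were lower and 4 higher. Without the WT vehicle library 2 were lower and 1 higher, where of the 4 only Cd40 passed, and Cd86 (log2 change 0.78, adjusted p = 0.16), Cd80 (log2 change 1.47, adjusted p = 0.16) and H2-DMb1 (log2 change -1.26, adjusted p = 0.083) did not pass.

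Complement genes beyond C1q were a mixed group, 5 of 16 higher and 2 lower, beside 15.6% and 10.4% of all genes. The 2 lower genes were near the share of all genes. Factor B (Cfb), which forms the alternative pathway convertase, had 2 vehicle UMIs and reached 272 and 412 CPM in the WT and 162 and 236 in the KO LPS libraries, a ratio of 88.3 (95% counting interval 24.4 to 731). Lrp1, a receptor for C1q-bound cargo, showed log2 change -1.54 ± 0.23, adjusted p = 0.0024. C3 went from 95.8 and 112 CPM with vehicle to 299 and 263 (WT) and 232 and 146 CPM (KO) with LPS (log2 change 1.16 ± 0.25, adjusted p = 0.013) but did not pass without the WT vehicle library (log2 change 0.76, adjusted p = 0.20), where Lrp1 (log2 change -1.13, adjusted p = 0.065) and the C5a receptor C5ar1 (log2 change 0.45, adjusted p = 0.38) did not pass either. Cfp passed (log2 change 1.04 ± 0.25, adjusted p = 0.021), but did not without the Prg4-type members (log2 change 0.90, adjusted p = 0.17) and turned in the MHC II-high cells (log2 change -0.15, adjusted p = 0.85). It also missed the threshold without the WT vehicle library (log2 change 0.85, adjusted p = 0.18) and without the KO vehicle library (log2 change 1.24, adjusted p = 0.056).

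**Figure D4:**
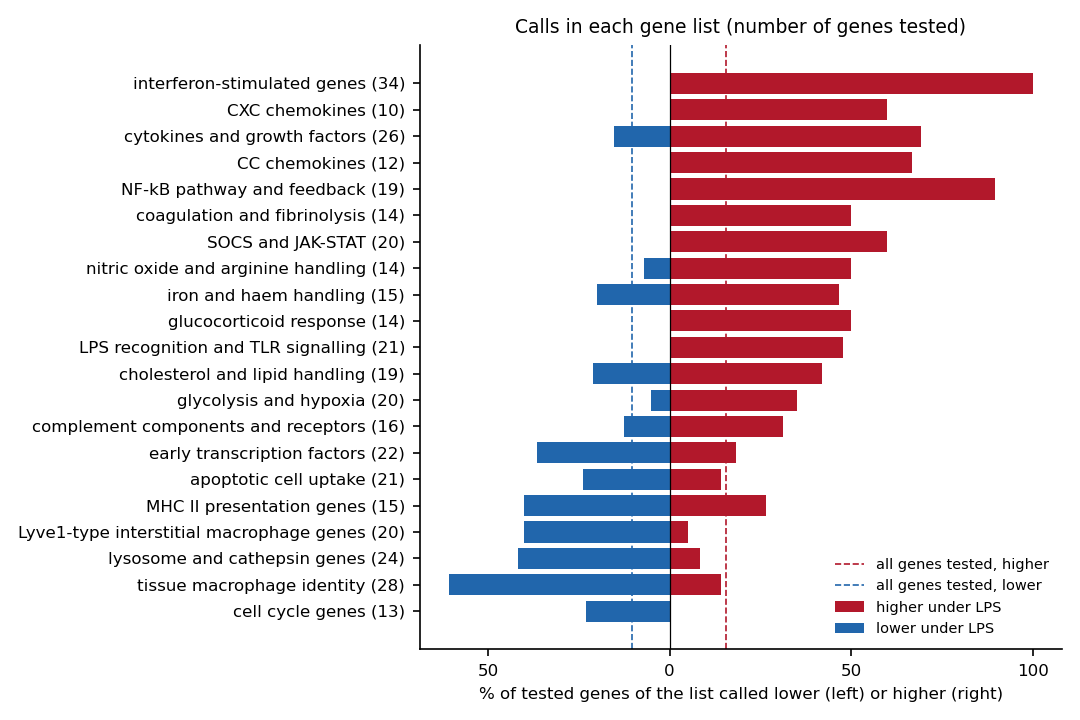
For each gene list (number of genes tested in brackets), bars give the percentage of tested genes called higher (red, right) or lower (blue, left) under LPS; dashed lines mark 15.6% and 10.4% for all genes. Interferon-stimulated genes reach 100% higher, and tissue macrophage identity genes have 17 of 28 lower.

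Nitric oxide and arginine genes rose in 7 of 14 cases, with 1 lower. Gch1, which makes the cofactor of the synthases, went from 19.95 and 12.5 CPM with vehicle to 208 and 209.5 (WT) and 164 and 148 CPM (KO) with LPS (log2 change 3.50 ± 0.27, adjusted p = 1.0e-04), and the arginine transporter Slc7a2 showed log2 change 6.65 ± 0.79, adjusted p = 7.7e-04. Inducible nitric oxide synthase (Nos2) had 0 UMIs with vehicle and was at 75.3 and 66.3 CPM in the WT and 2.41 and 6.74 in the KO LPS libraries (adjusted p = 0.010, at least 8.89-fold). That call was lost without the WT vehicle library (adjusted p = 0.27) and without Prg4-type members (adjusted p = 0.087). In thinned cells Nos2 was in 0%, 0%, 4.35%, 6.17%, 1.82% and 0% of members and 0.0533%, 0%, 4.69%, 5.88%, 1.55% and 1.83% of B cells, so its share was at the level of free RNA. At full depth 1 cell held 33 of 62 Nos2 UMIs in the first WT LPS library. The part of free RNA in the Nos2 level was not tested. Arg1 did not pass (log2 change -1.88 ± 1.47, adjusted p = 0.38). Nos1 gave 1 UMI in the members, in the KO vehicle library.

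Metallothionein genes rose. Metallothionein 2 (Mt2), which binds zinc, went from 27.9 (WT) and 22.5 CPM (KO) with vehicle to 3773 and 3552 (WT) and 2288 and 2223 CPM (KO) with LPS (log2 change 6.83 ± 0.21, adjusted p = 3.9e-06), and Mt1 from 471 and 837 CPM with vehicle to 10495 and 11216 (WT) and 8459.8 and 6495 CPM (KO) with LPS (log2 change 3.84 ± 0.18, adjusted p = 2.0e-05). These belong to a list of 14 glucocorticoid-responsive genes of which 7 rose and none fell. Fkbp5, another gene of that list, showed log2 change 2.44 ± 0.41, adjusted p = 0.0044, and without the KO vehicle library log2 change 1.43, adjusted p = 0.14. Of 15 iron and haem genes 7 rose and 3 fell, with ferritin heavy chain (Fth1) going from 8835 and 9536 CPM with vehicle to 34562 and 40614 (WT) and 21633 and 26944 CPM (KO) with LPS (log2 change 1.72 ± 0.15, adjusted p = 1.9e-04) and ceruloplasmin (Cp) showing log2 change 2.52 ± 0.24, adjusted p = 2.6e-04. Hfe, a regulator of iron uptake, fell (log2 change -2.87 ± 0.34, adjusted p = 7.2e-04).

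Lysosomal genes fell more often than they rose, 10 of 24 against 2. Acid lipase (Lipa) went from 132 and 159.97 CPM with vehicle to 25.5 and 34.5 (WT) and 33.7 and 31.4 CPM (KO) with LPS (log2 change -2.21 ± 0.23, adjusted p = 3.9e-04) and prosaposin (Psap) showed log2 change -1.08 ± 0.14, adjusted p = 0.0012. Of 19 cholesterol and lipid genes 8 rose and 4 fell. The scavenger receptor Msr1 went from 79.8 and 72.5 CPM with vehicle to 619 and 577 (WT) and 474 and 355 CPM (KO) with LPS (log2 change 2.71 ± 0.22, adjusted p = 1.4e-04) and the lipid droplet coat Plin2 from 204 and 112 CPM with vehicle to 515 and 485 (WT) and 486 and 519 CPM (KO) with LPS (log2 change 1.73 ± 0.17, adjusted p = 3.2e-04).

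Coagulation genes rose in 7 of 14 cases and none fell. Factor X (F10) went from 35.9 and 15 CPM with vehicle to 242 and 264 (WT) and 183 and 132 CPM (KO) with LPS (log2 change 3.10 ± 0.29, adjusted p = 2.4e-04). Thbs1 rose (log2 change 4.55 ± 0.46, adjusted p = 3.8e-04) and remained called without Prg4-type members, but Serpinb2 (log2 change 4.39 ± 0.58, adjusted p = 0.0013) did not (log2 change 3.57, adjusted p = 0.16). Among 20 glycolysis and hypoxia genes 7 rose and 1 fell, with Pfkfb3 (log2 change 3.18 ± 0.26, adjusted p = 1.4e-04), Hif1a (log2 change 2.26 ± 0.27, adjusted p = 7.7e-04) and Hk2 (log2 change 2.08 ± 0.29, adjusted p = 0.0016), and with either vehicle library left out 3 rose and none fell.

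Early transcription factors went both ways, 8 of 22 lower and 4 higher, beside 10.4% and 15.6% of all genes. The 4 that rose were near the share of all genes. Fos went from 1664 and 2902 CPM with vehicle to 629 and 614 (WT) and 1077 and 1258 CPM (KO) with LPS (log2 change -1.37 ± 0.13, adjusted p = 3.1e-04) and Egr1 from 439 and 842 CPM with vehicle to 209 and 184 (WT) and 292 and 274 CPM (KO) with LPS (log2 change -1.36 ± 0.15, adjusted p = 5.4e-04). Cebpb, a factor of the acute-phase response, went from 483 and 392 CPM with vehicle to 1803 and 2121 (WT) and 1319 and 1404 CPM (KO) with LPS (log2 change 1.91 ± 0.16, adjusted p = 1.5e-04). Of 13 cell cycle genes 3 were lower, Stmn1 (from 136 and 145 CPM with vehicle to 42.5 and 18.6 (WT) and 37.3 and 42.7 CPM (KO) with LPS, adjusted p = 0.0029), Top2a and Birc5. Single cells held 29 of 34 and 43 of 58 vehicle UMIs of Stmn1 and all 6 and all 12 of Birc5 in the WT and KO libraries. Top2a did not pass without the WT vehicle library (log2 change -0.31, adjusted p = 0.70), and Birc5 did not pass with either vehicle library left out.

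Markers of other cells moved with LPS as well. Of the monocyte markers Ccr2 fell from 714 and 365 CPM with vehicle to 47.4 and 27.9 (WT) and 197 and 155 CPM (KO) with LPS (log2 change -2.64 ± 0.21, adjusted p = 1.4e-04), though not without the WT vehicle library (log2 change -1.05, adjusted p = 0.064). Vcan, a monocyte proteoglycan, rose from 0 in both vehicle libraries to 128 and 105 CPM in the WT and 191 and 112 in the KO LPS libraries, at least 29.9-fold. The 5 stromal markers together were at 1651 and 1428 CPM with vehicle and 212, 44.8, 314 and 122 CPM with LPS, and the 6 B cell markers at 337 and 289.6 CPM with vehicle and 31.6, 32.1, 36.8 and 63.3 CPM with LPS. Epithelial markers were at 58.3 and 58.5 CPM with vehicle and 49.5, 56.2, 5707 and 30.5 CPM with LPS, where 1 cell of the first KO LPS library held 3963 of 3982 Sftpc UMIs. The part of these RNAs in the results above was not tested.

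Few genes passed the test between KO and WT members under LPS. Of 8123 genes 1 passed (0.0123%), while 938 had an unadjusted p under 0.05 and DESeq2 called 5. That gene, the predicted transcript Gm15056, was lower in the KO, and single cells held 53 of 76 and 55 of 74 of its UMIs in the WT libraries. Of all genes tested, 18.3% were higher and 24.1% lower in both KO LPS libraries than in both WT LPS libraries. Without the second KO LPS library 542 genes passed, and without the others 33 to 78. Nearest to a call among the genes of interest was Nos2, at 75.3 and 66.3 CPM in the WT and 2.41 and 6.74 in the KO LPS libraries (log2 change -4.08 ± 0.46, adjusted p = 0.095). Saa3 was at 15502 and 18769 against 7577 and 5629.9 CPM (log2 change -1.38 ± 0.19, adjusted p = 0.11), and Cxcl13 at 8202 and 6488 against 1456 and 451 (log2 change -2.93 ± 0.47, adjusted p = 0.16). The libraries of the 2 genotypes did not overlap for these 3 genes, and the shares of members with Nos2 and Saa3 are those given above beside free RNA. Within Prg4 cells, 8 and 18 in WT and 5 and 5 in KO LPS libraries, Saa3 was at 66160 and 47652 against 24563 and 31592 CPM. The other MHC II-low cells had 2726 and 3105 against 5063 and 3963. MHC II-high cells had 4968 and 1794 against 4380 and 1264. The part of cell make-up in the Saa3 difference was not tested. Socs1 showed log2 change -0.26 ± 0.21, adjusted p = 0.68 and Tnf log2 change 0.14 ± 0.23, adjusted p = 0.87. Only the KO LPS libraries held members with Y-linked UMIs, so genotype and sex are partly mixed in this comparison and in the next paragraph.

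Leaving out members with a Prg4, Alox15, F5 or Selp UMI, a choice made after the data were seen, 25 genes differed between KO and WT under LPS, 11 higher and 14 lower in the KO. Nos2 was lower (log2 change -5.47, adjusted p = 0.023) and so were Ccl5 (log2 change -1.02, adjusted p = 0.035) and Isg15 (log2 change -0.99, adjusted p = 0.035). Over all members, 1 cell held 33 of 62 Nos2 UMIs in the first WT LPS library, and the KO LPS libraries held 2 and 3. The Nos2 share of all members was at the level of free RNA given above, which was also lower in the KO LPS libraries. Ccr2 (log2 change 2.13, adjusted p = 0.023), Ccl2 (log2 change 1.21, adjusted p = 0.047) and Fos (log2 change 0.94, adjusted p = 0.035) were higher. In MHC II-high members alone, in members without dendritic markers, in those without other-type markers and in those with Xist and no Y-linked UMI, 0 genes passed by edgeR, and 779, 808, 492 and 558 had an unadjusted p under 0.05.

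The response to LPS differed between genotypes for 1 gene, Xist (0.0123% of 8123; 522 at an unadjusted p under 0.05). Xist stood at 0 CPM in the WT and 705 in the KO vehicle library and 403 and 389 CPM in the WT and 317 and 314 in the KO LPS libraries, and the library at 0 is the one whose members carried Y-linked UMIs and no Xist. The separate responses of WT and KO members to LPS were -6.87 and -4.39 for Cx3cr1, 2.67 and 1.05 for Socs3, and 3.39 and 2.11 for Nfkbia on the log2 scale, and the difference did not pass for any of them (adjusted p = 0.76, 0.69 and 0.69). Without Prg4-type members 6 genes passed, among them Socs3 (log2 change -2.14, adjusted p = 0.041), Dusp1 (log2 change -2.05, adjusted p = 0.041) and Mt1 (log2 change -1.64, adjusted p = 0.041), each with a more positive response in the WT.

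The vehicle libraries, 1 per genotype, allow values only. Among genes with at least 100 UMIs in 1 of them, the 5 genes named for the largest ratios towards the KO were Rsrp1, Dusp1, Atf3, Zfp36l1 and Egr1. Dusp1, a MAP kinase phosphatase, was at 379 CPM (307 to 463) in the WT and 875 (786 to 971) in the KO library, with exact 95% Poisson intervals that cover counting error only. Egr1 was at 439 CPM (361 to 529) in the WT and 842 (755 to 937) in the KO library and Atf3 at 132 CPM (90.6 to 185) in the WT and 282 (233 to 339.6) in the KO library. Rsrp1 and Zfp36l1 had ratios of 2.43 and 1.93. Lower in the KO library were the calcium-binding S100a4, at 646 CPM (551 to 754) in the WT and 145 (110.1 to 187) in the KO library, and S100a6, at 670.4 CPM (573 to 779.8) in the WT and 232 (188 to 285) in the KO library. Capg, Fn1 and Ccl6 had ratios of 0.352, 0.379 and 0.403. The WT vehicle library carries male and the KO vehicle library female marks, so genotype, sex and library cannot be told apart.

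Members and alveolar macrophages of the same libraries answered LPS differently. The alveolar set had 7766 cells with at least 5 UMIs of the 5 alveolar genes, and 1540 of 13622 genes (11.3%) differed in their response, 893 (6.56%) more positive in members and 647 (4.75%) more positive in alveolar macrophages (756 and 784 with relative log expression scaling). DESeq2 called 575. This fit also leaves 2 residual degrees of freedom and shares its estimate of the spread between genes. The very small p-values of this comparison, here and below, therefore do not measure replicate spread gene by gene. Interferon-stimulated genes rose more in members, 23 of 34 and none the other way (median difference 2.34 over the 31 with vehicle UMIs in members, all genes 0.171). Isg15 changed by 7.82 in members and 5.58 in alveolar macrophages (difference 2.39 ± 0.33, adjusted p = 7.4e-11); these and the values below are on the log2 scale. Ccl5 changed by 5.58 in members and 2.29 in alveolar macrophages (difference 3.42 ± 0.19, adjusted p = 1.7e-67). Il1rn changed by 7.29 in members and 1.63 in alveolar macrophages (difference 5.84 ± 0.36, adjusted p = 8.6e-55) and Fcgr1 by 3.21 in members and 0.75 in alveolar macrophages (difference 2.60 ± 0.24, adjusted p = 7.2e-25).

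Alveolar macrophages showed the larger rise of several immediate inflammatory genes. Il1b changed by 2.80 in members and 4.86 in alveolar macrophages (difference -1.95 ± 0.22, adjusted p = 2.4e-16), Cxcl2 by 2.56 in members and 5.50 in alveolar macrophages (difference -2.84 ± 0.19, adjusted p = 6.5e-47) and Socs3 by 1.86 in members and 5.10 in alveolar macrophages (difference -3.11 ± 0.21, adjusted p = 1.1e-45). Members started from higher Cxcl2 levels, which went from 445 and 513 to 2608, 4855, 2676 and 2329 CPM in members, and from 32.2 and 77.8 to 2789.5, 2543, 1861 and 1916 CPM in the alveolar set. Ccl2 changed by 0.95 in members and 4.95 in alveolar macrophages (difference -3.92 ± 0.23, adjusted p = 2.0e-59) and Egr1 by -1.36 in members and 3.48 in alveolar macrophages (difference -4.71 ± 0.20, adjusted p = 4.6e-115). The difference did not pass for Tnf (difference -0.90 ± 0.57, adjusted p = 0.53) or Ccl4 (difference -0.18 ± 0.23, adjusted p = 0.80). The largest differences towards alveolar macrophages also held Slco2b1 (difference -8.01 ± 0.72, adjusted p = 1.5e-25), Egr2, Prtn3, Nbl1, Anln, Ccl8 and Alox15 (Nbl1, Anln and Ccl8 missed the threshold without single LPS libraries, Ccl8 at an adjusted p of 0.24 without the first WT one), and Kazald1. Fpr2, Fpr1, Apol7c, Cxcl9, Cd200, Mlkl, Ifit1 and Atp10a rose more in members from 0 UMIs with vehicle, Fpr2 from 0 and 0 to 278, 263, 171 and 174 CPM in members, and from 124 and 126 to 293, 287, 197 and 218 CPM in the alveolar set (adjusted p = 1.5e-27). With the cells of both sets thinned to 2000 UMIs, Fpr2, Cxcl9, Slco2b1 and Egr2 passed, 11 of these 16 genes did not, and Kazald1 turned. All 21 and all 16 vehicle UMIs of Alox15 in members lay in 1 cell of the WT and 1 of the KO library.

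Identity genes moved lower in members than in alveolar macrophages. Of 28 such genes 17 moved lower in members and 4 higher, beside 4.75% and 6.56% of all genes. Those are also the base rates for the other list counts against alveolar macrophages. Csf1r changed by -1.61 in members and 0.24 in alveolar macrophages (difference -1.72 ± 0.19, adjusted p = 5.1e-17) and Cx3cr1 by -5.63 in members and -2.68 in alveolar macrophages (difference -2.82 ± 0.32, adjusted p = 9.3e-17). Of 21 Lyve1-type genes 10 moved lower in members and none higher, and of 16 MHC II genes 8 and 1. H2-DMa changed by -1.83 in members and -0.30 in alveolar macrophages (difference -1.39 ± 0.20, adjusted p = 9.3e-11) and Selenop by -1.72 in members and -0.20 in alveolar macrophages (difference -1.39 ± 0.18, adjusted p = 3.9e-12). The alveolar set was far larger, at 976 to 1938 cells per library, and with the cells of both sets thinned to 2000 UMIs 501 genes passed.

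**Figure D5:**
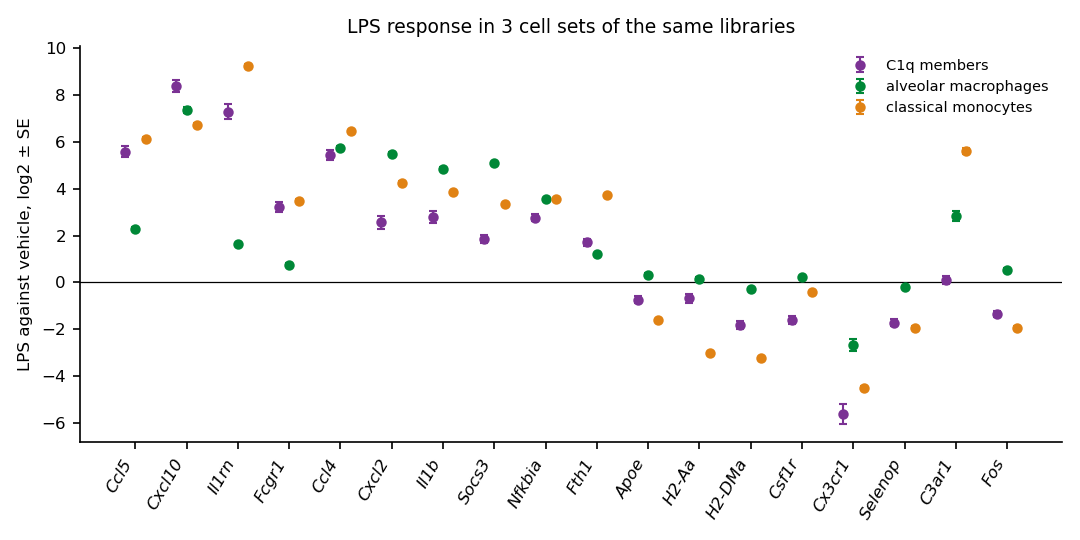
LPS response (log2 LPS against vehicle ± standard error, vertical axis) of 18 genes in C1q members (purple), alveolar macrophages (green) and classical monocytes (orange) of the same 6 libraries. Ccl5 is at 5.58 in members and 2.29 in alveolar macrophages, and H2-Aa at -0.69 in members and -3.04 in monocytes.

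Classical monocytes were 4833 cells with at least 5 UMIs of Ly6c2, Ccr2, F13a1 and Vcan, at least 5 of Lyz2 and at most 2 of C1q. In this comparison 668 of 10837 genes (6.16%) differed, 459 (4.24%) more positive in members and 209 (1.93%) in monocytes. These shares are the base rates for the list counts against monocytes. An unadjusted p under 0.05 was found for 2050 of 10837 genes here and 2810 of 13622 against alveolar macrophages. The 2 fits estimate the spread separately, so their called counts do not rank how far the 2 cell sets differ from members. With another scaling (relative log expression) the split was 350 and 250. Without the first or second WT LPS library 137 and 228 genes passed. Interferon-stimulated genes again rose more in members, 27 of 34 and none the other way. Isg15 went from 18.6 and 14.6 to 5303, 5181, 3335 and 2613 CPM in members, and from 149.5 and 121 to 6423, 6069, 3755 and 3041 CPM in the monocyte set (difference 2.80 ± 0.19, adjusted p = 1.5e-05), so its levels were closer with LPS than with vehicle. Cxcl10 changed by 8.40 in members and 6.73 in monocytes (difference 1.88 ± 0.22, adjusted p = 6.2e-04). Ccl17, Ifit1, Ifit3, Oas3, Ifi205, Nlrc5, Trim30b and Fpr2 led the genes that rose more in members, Oas3 from 0 and 0 to 211, 215, 129.99 and 173 CPM in members, and from 58.4 and 48.6 to 398, 382, 239 and 252 CPM in the monocyte set. With cells thinned to 2000 UMIs Ifi205, Nlrc5, Trim30b and Fpr2 did not pass. Fpr2, Nlrc5 and Trim30b missed the threshold without the first WT LPS library (adjusted p = 0.060, 0.057 and 0.064).

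MHC II genes had the more positive response in members in 8 of 16 cases, and in monocytes in none. H2-Aa changed by -0.69 in members and -3.04 in monocytes (difference 2.54 ± 0.16, adjusted p = 8.7e-06) and H2-DMa by -1.83 in members and -3.26 in monocytes (difference 1.62 ± 0.16, adjusted p = 2.6e-04). Apoe changed by -0.74 in members and -1.61 in monocytes (difference 1.07 ± 0.14, adjusted p = 0.0013). Monocytes gained other genes that members already had with vehicle. Ccl12 went from 317 and 466 to 1583, 1461, 1239 and 816 CPM in members, and from 0 and 0.363 to 715, 615, 277 and 195 CPM in the monocyte set (adjusted p = 1.6e-07). The C3a receptor C3ar1 changed by 0.092 in members and 5.63 in monocytes (difference -5.34 ± 0.26, adjusted p = 2.0e-06) and Fth1 by 1.72 in members and 3.74 in monocytes (difference -1.83 ± 0.10, adjusted p = 4.5e-06). Stab1, Pf4 (adjusted p = 0.078 and 0.069 without the first and second WT LPS library) and the cycle genes Hist1h1b, Hist1h3c and Birc5 moved the same way, and 9 of 18 cell cycle genes were lower in members and none higher. Among the members with vehicle 1 cell per library held most UMIs of several cycle genes, 50 of 58 and 121 of 122 UMIs of Hist1h1b, all 6 and all 16 of Hist1h3c, all 6 and all 12 of Birc5, and 7 of 7 and 20 of 21 of Mki67. Gng11, also among the largest, lost its difference when cells were thinned. The difference did not pass for Ccl5 (difference -0.38 ± 0.15, adjusted p = 0.19) or Cx3cr1 (difference -0.96 ± 0.46, adjusted p = 0.29). Early factors moved higher in members in 9 of 24 cases and lower in 1, as with Fos (difference 0.77 ± 0.14, adjusted p = 0.0078).

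Finally, members with at least 2 UMIs of Lyve1, Folr2, Cd163 and Timd4 in cells thinned to 2000 UMIs, 6, 6, 10, 6, 8 and 5 per library, were compared with members that had none, 26, 37, 56, 62, 38 and 36. Of 497 genes 29 differed (5.84%), 20 higher (4.02%) and 9 lower (1.81%). MHC II was lower in the Lyve1 and Folr2 group. H2-Ab1 was at 5573, 3782, 1541, 2811, 2719 and 524 CPM in the group and 12591, 13388, 7843, 6454, 6914 and 8054 CPM in the others, with no library in which the group was higher (log2 difference -1.77 ± 0.24, adjusted p = 0.0010). Cd74 (log2 difference -1.90 ± 0.34, adjusted p = 0.0028) and Cd52 (log2 difference -1.70 ± 0.26, adjusted p = 0.0010) were lower too, and Ccl5 (log2 difference -1.19 ± 0.30, adjusted p = 0.031). Mrc1 was higher (log2 difference 1.61 ± 0.27, adjusted p = 0.0021), with Pf4 (log2 difference 1.53 ± 0.22, adjusted p = 0.0010), the endocytic adaptor Dab2 (log2 difference 1.52 ± 0.27, adjusted p = 0.0027), Selenop (log2 difference 1.46 ± 0.24, adjusted p = 0.0016), the transcription factor Maf (log2 difference 1.35 ± 0.32, adjusted p = 0.017) and Zfp36l1 (log2 difference 1.89 ± 0.28, adjusted p = 0.0010). Prg4 (log2 difference 2.65 ± 0.59, adjusted p = 0.013) and Thbs1 (log2 difference 2.40 ± 0.52, adjusted p = 0.013) were higher as well, and at full depth 27 of 38 Prg4 cells, 26 of 55 other MHC II-low and 52 of 254 MHC II-high members met the 2-UMI rule. The group thus mixed both MHC II-low kinds. With 3 UMIs required 1 gene passed, and with cells thinned to 4000 UMIs 77. Its LPS response differed from that of the other members for 0 of 497 genes by edgeR (31 at an unadjusted p under 0.05) and for 0 by DESeq2 (10).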

How the data were processed

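The deposited matrices hold whole-number UMI counts per gene and cell barcode, which the authors made using Cell Ranger 6.1.0 on mm10, with Seurat 4.1.0 and R 4.1.3 also named, per the submitters' processing notes. Here the counts of the members were summed per library and tested with edgeR 4.0.16 (R 4.3.3; quasi-likelihood test, TMM scaling, filterByExpr, a mean per group, 2 residual degrees of freedom), with Benjamini-Hochberg adjustment over all genes tested and a threshold of 0.05. LPS was compared with vehicle averaged over the genotypes, KO with WT under LPS, and the LPS response between genotypes. Alveolar macrophages and monocytes were compared with members in fits with the library as a block. DESeq2 1.42.0 was an alternative. Libraries were grouped by their titles. Cells were read, thinned to 2000 UMIs at a fixed seed and scored for doublets (Scrublet in scanpy 1.11.5) in Python 3.11.15. The automatic doublet threshold was unusable, so an alternative leaves out the top scores at 0.8% per 1000 barcodes. CPM levels follow TMM scaling.

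The members, lists, comparison sets and tests were chosen with earlier results of these data known. Named genes are the 12 largest rises and falls under LPS (8 each way in the other comparisons) among called genes with at least 50 CPM and no overlap between the sides, up to 6 genes of each list by p, and a set of macrophage, cytokine and sex genes. Genes without symbols of their own, ribosomal and mitochondrial genes and markers of other cells were left out of the ranking. Other genes in the text were chosen after their values were seen. Some genes that meet the rule are not reported here. Where a gene had 0 vehicle UMIs, a fold is given as a lower bound against 3 counts over the vehicle side, and for 1 to 3 UMIs as a ratio and its 95% Poisson interval. If 1 group held 0 UMIs, the log2 change averages over that 0 and its size is uncertain. PCR copies are collapsed by UMIs, and intervals cover counting error only. On simulated counts with known changes, the LPS comparison recovered 14% of genes changed by log2 1 and 63% of those changed by log2 2, the genotype comparison under LPS 12% and 68%, and the difference between genotypes 0% and 1%. The simulated counts had the same spread for every gene and the same baseline in every library. They held no single-cell outliers and no differences in sex or cell make-up, so these shares may differ from the power in the real data. Alternatives were scaling, low-count filter, tool, membership thresholds, cells with other markers, doublets, depth, sex marks, pooled genotypes and leaving out each library, where a group left with 1 library is assumed to vary like the others. Promoters are from RefSeq on GRCm38.p6, where 6509 tested genes matched by symbol, and gene positions from GENCODE M21.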

Additional observations from a re-analysis of the deposited data

Results flagged for a closer look

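The response to LPS of Xist, the RNA of the inactive X chromosome, differed between genotypes, with a log2 difference of -12.01 (KO minus WT, adjusted p = 0.0024; edgeR). It is listed because the test of the difference between the genotypes passed. Xist was at 0 CPM in the WT and 705 in the KO vehicle library and at 403 and 389 CPM in the WT and 317 and 314 in the KO LPS libraries. In the WT vehicle library 16 members held Y-linked UMIs without Xist and 0 held Xist alone. In the KO vehicle library 48 held Xist alone. The difference therefore cannot be told apart from the sex of the cells in the vehicle libraries and is not read as a response to LPS.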

How the results depend on the processing

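For LPS against vehicle, 2110 genes became 722 with DESeq2, 1168 without members holding other-type markers, 1014 with cells thinned to 2000 UMIs, 659 with cells marked by Xist alone (KO libraries) and 926 to 2734 when 1 library was left out. KO against WT under LPS gave 1 gene, and 436 with no filter, 5 with DESeq2, 5 with C1q at 5 UMIs, 10 without high doublet scores, 34 thinned, 25 without members with a Prg4, Alox15, F5 or Selp UMI, and 0 without other-type markers, without dendritic markers, in MHC II-high and in Xist-marked cells. Leaving out 1 library gave 33 to 542. With the replicate number as a block it gave 8. Same-numbered LPS libraries deviated together with a correlation of 0.0418 over 2809 genes, so the numbers were not taken as pairs. The difference between genotypes gave 1 gene, 70 with no filter, 4 thinned, 6 without the Prg4-type members and 2 to 112 without 1 library. Against alveolar macrophages 1540 became 501 thinned and 575 with DESeq2, and the higher and lower split of 893 and 647 became 756 and 784 with relative log expression scaling. Against monocytes 668 became 259 thinned, 226 with DESeq2 and 137 to 974 without 1 library. For Lyve1 and Folr2 members, 29 became 313 with no filter, 1 at 3 UMIs, 77 at 4000 UMIs and 14 to 29 without 1 library. Directions turned for Cfp (-0.146 in MHC II-high cells), Top2a (0.438 without other-type markers), Kazald1 (0.895 thinned, alveolar comparison), Gng11 (0.0716 thinned, monocyte comparison), Xist (-0.0798 with genotypes pooled, -0.606 in Xist-marked cells, -1.17 to 10.9 without 1 library) and Eif2s3y (-6.31 to 6.62 without 1 library). The cause was not tested, except that leaving out a vehicle library leaves 1 genotype, and sets of fewer cells hold fewer UMIs. Xist and the Y-linked Eif2s3y follow sex, and the libraries differ in sex marks, so their turns cannot be told apart from sex. Subsets by MHC II, Prg4-type genes and dendritic markers were chosen after seeing the data. Cells with Y-linked UMIs alone were too few for a fit. Among single genes named for LPS against vehicle, 3707 values under the alternatives kept side and direction, 176 lost the call, 99 gained one and 6 turned.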
